A study of Homo sapiens with 9 samples.

Results

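Claudins, keratins, E-cadherin, EPCAM and the ETS factor ELF3 are genes by which epithelial cells are recognised, and vimentin is the filament gene by which mesenchymal cells are recognised. The 10 genes described here are CLDN3, CLDN4, CLDN6, CLDN7, ELF3, CDH1, EPCAM, KRT8 and KRT18 as epithelial genes, and VIM as the mesenchymal gene. They were taken by symbol from the 63856 genes of the deposited tables, each symbol having 1 row, and all 10 passed the filter on low counts that left 18452 genes for testing. The rule names symbols and uses no measured value, but the members were chosen with earlier results of these data known. The study had already reported CLDN4 and ELF3 as higher and VIM as lower with activated ESX1 in these samples.

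The cells were TCam-2, an established human seminoma line, a tumour line of germ cell origin that is labelled as testis. RNA-seq was made from 3 groups of 3 samples. WT cells carried no modification. NC cells carried vectors with nonspecific gRNAs, and the ESX1-activated cells carried vectors with gRNAs for ESX1, a homeobox gene of the X chromosome. CRISPRa switches a gene on by bringing a catalytically dead Cas9 fused to the activator VPR to its promoter. Both transfected groups received the GFP-carrying gRNA vector, antibiotic selection and doxycycline. The methods name the inducible dCas9-VPR vector in the mix with the ESX1 gRNAs and do not say whether NC cells received it, so the gRNAs and that vector cannot be told apart in the comparison with NC. Only part of the cells in both transfected groups was GFP-positive, and a sample is a mixture of such cells and others. In these bulk samples a lower level in some cells and fewer cells that express a gene cannot be told apart.

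Total counts were 7494442 to 10644408 in WT, 8821806 to 9220653 in NC and 5212804 to 9990966 in ESX1-activated samples, of which replicate 3 was the shallowest. Mitochondrial genes took 17.02% to 18.33% of counts in WT, 14.45% to 15.25% in NC and 19.2% to 19.87% in activated samples, so that this share also moved with the groups. Its part in the results was not tested, and with mitochondrial genes left out of the library sizes the same number of members, 3, passed against NC. Log2 CPM of replicates correlated across genes with r between 0.967 and 0.980. ESX1 itself had 28 to 33 counts in WT, 27 to 35 in NC and 170 to 562 in the activated samples, which fits all 9 labels. Of the seminoma markers, NANOG, POU5F1, TFAP2C, SOX17, PRDM1, KIT, PDPN, ALPL and NANOS3 passed the count filter in these cells and DPPA3 did not. Their summed level was 3520 to 4284 normalized CPM in WT, 2736 to 2936 in NC and 1551 to 1869 in ESX1-activated samples, so it moved with the groups in every comparison below and its part in the results was not tested.

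Claudins are four-pass membrane proteins that polymerise into tight junction strands and set which ions pass between cells. E-cadherin, the CDH1 product, joins neighbouring cells at adherens junctions, and EPCAM is an adhesion protein that binds claudin-7. Keratins 8 and 18 are the type II and type I filament proteins of simple epithelia, which assemble only as a pair, whereas vimentin forms filaments by itself. ELF3 is an ETS factor of epithelial cells. In the epithelial to mesenchymal transition, factors of the Snail and ZEB families bind E-boxes in epithelial genes and repress them.

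The positions of the genes are those of the count table on GRCh38. CLDN3 (ENSG00000165215.6, chr7:73768997-73770270, minus strand) and CLDN4 (ENSG00000189143.9, chr7:73799542-73832693, plus) are neighbours. CLDN6 (ENSG00000184697.6) is at chr16:3014712-3020071 on the minus strand and CLDN7 (ENSG00000181885.18) at chr17:7259903-7263983 on the minus strand. ELF3 (ENSG00000163435.15) is at chr1:202007945-202017188, CDH1 (ENSG00000039068.18) at chr16:68737225-68835548 and EPCAM (ENSG00000119888.10) at chr2:47345158-47387601, all on the plus strand. KRT8 (ENSG00000170421.12, chr12:52897187-52949954, minus) and KRT18 (ENSG00000111057.10, chr12:52948871-52952901, plus) lie head to head on opposite strands and their exons share 525 bases. VIM (ENSG00000026025.15) is at chr10:17228259-17237593 on the plus strand.

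The upstream sequences of CLDN4, ELF3 and VIM are shown because these were the 3 genes that differed between ESX1-activated and NC cells. Each is the 250 bases before the RefSeq transcription start on GRCh38.p14, 5′ to 3′ on the gene's strand, with matches to the ETS core GGAA, the E-box CAGGTG and the homeodomain core TAATTA, on either strand, in capitals. The CLDN4 stretch is chr7:73830746-73830995, the ELF3 stretch chr1:202010337-202010586 and the VIM stretch chr10:17227991-17228240, all on the plus strand.
CLDN4: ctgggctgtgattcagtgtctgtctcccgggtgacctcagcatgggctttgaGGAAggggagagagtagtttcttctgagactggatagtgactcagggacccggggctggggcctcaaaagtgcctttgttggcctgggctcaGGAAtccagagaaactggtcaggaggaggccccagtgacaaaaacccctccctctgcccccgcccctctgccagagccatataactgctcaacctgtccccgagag
ELF3: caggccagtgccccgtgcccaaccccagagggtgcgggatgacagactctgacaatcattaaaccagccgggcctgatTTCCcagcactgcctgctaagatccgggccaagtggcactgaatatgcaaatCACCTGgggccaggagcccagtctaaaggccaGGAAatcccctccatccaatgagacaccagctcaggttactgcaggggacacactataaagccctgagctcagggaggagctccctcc
VIM: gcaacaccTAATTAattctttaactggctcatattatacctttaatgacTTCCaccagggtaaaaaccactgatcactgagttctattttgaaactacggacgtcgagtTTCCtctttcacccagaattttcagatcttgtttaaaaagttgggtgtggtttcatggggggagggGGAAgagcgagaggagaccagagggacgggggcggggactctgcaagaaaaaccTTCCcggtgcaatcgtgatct
The ELF3 stretch held 1 E-box, which 17.5% of 35116 upstream windows of this length hold, and those of CLDN4 and VIM held none. The GGAA core occurred 2 times in CLDN4, 2 times in ELF3 and 4 times in VIM, and 92.7% of all windows hold it at least once. The TAATTA core occurred 1 time, in VIM, against 4.3% of all windows. The Grainyhead-like motif AACCNGTT occurred in none of the 7 members with a RefSeq window, against 1.5% of all windows. CDH1, EPCAM and KRT18 were not in that table. The RefSeq start of CLDN4 lies 31454 bases inside the gene of the count table, that of ELF3 2642 bases inside it, and that of VIM 18 bases outside it.

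Against NC, the cells with activated ESX1 had more CLDN4 and ELF3 RNA and less VIM RNA, while CDH1, EPCAM, KRT8, CLDN6 and CLDN7 gave differences between -0.14 and 0.09 on the log2 scale. KRT18 differed by -0.41 (edgeR adjusted p = 0.259), opposite in sign to CLDN4 and ELF3, and CLDN3 by 0.63 (edgeR adjusted p = 0.398). Of the 10 genes, 3 passed the threshold, an adjusted p below 0.05 in edgeR's quasi-likelihood test with a fold of at least 2. Of all tested genes 1.78% did so. The 3 genes are those of the 10 that the study had already listed from these samples. Setting them against that share is therefore no independent test. Levels below are TMM-normalized CPM, the counts scaled to a common library size.

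CLDN4 encodes a claudin that seals tight junctions against cations. It had 24.2, 17.5 and 18.6 CPM in the WT samples, 21.2, 20.8 and 18.9 in NC and 73.2, 51.4 and 44.9 in the ESX1-activated samples. Each activated sample lay above all 6 control samples, and the controls overlapped. CLDN4 rose 2.80-fold against NC (log2 1.48, SE 0.18, edgeR adjusted p = 0.00011) and 2.81-fold against WT (log2 1.49, adjusted p = 1.44e-05). NC and WT differed by 0.01 (95% interval -0.39 to 0.40).

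Per kilobase of annotated exon ELF3 was the lowest of the 10 genes, although CLDN3 had the lower mean CPM in each group. Its CPM were 9.61, 6.56 and 6.999 in WT, 5.49, 5.36 and 6.11 in NC, and 16.2, 15.1 and 9.61 in the activated samples. The third activated sample, the shallowest library with 52 counts, was level with WT replicate 1, so that activated and WT samples overlapped while activated and NC samples did not. ELF3 rose 2.44-fold against NC (log2 1.29, SE 0.24, edgeR adjusted p = 0.00449). Against WT the difference was 0.83 (SE 0.24, edgeR adjusted p = 0.0144), under the 2-fold limit. It was 1.02 without WT replicate 1 and 1.04 without activated replicate 3, past the limit both times, and its adjusted p was 0.0691 without WT replicate 2, 0.0542 without WT replicate 3 and 0.0659 without activated replicate 1. ELF3 shares 554 exon bases with the antisense gene ELF3-AS1, which had 6 to 17 counts, and the counting was made without regard to strand.

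VIM encodes the filament protein of mesenchymal cells and is also found in many cultured lines. It had 276, 312 and 271 CPM in WT, 342, 326 and 332 in NC, and 152, 204 and 132 in the activated samples. All 3 activated samples lay below all 6 controls, and all NC samples above the WT samples. VIM fell 2.04-fold against NC (log2 -1.03, SE 0.14, edgeR adjusted p = 0.000254). Against WT the difference was -0.81 (SE 0.14, adjusted p = 0.000286), which is under the 2-fold limit. The call against NC stood at the edge of that limit: without activated replicate 1 the difference was -0.98 (adjusted p = 0.00115) and without activated replicate 3 it was -0.89 (adjusted p = 0.00155), and against WT without activated replicate 2 it passed the limit at -1.02. Exons of other genes covered 24.43% of the exon bases of VIM, among them the antisense gene VIM-AS1, which shares 641 bases and had 11 to 73 counts.

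**Figure D1:**
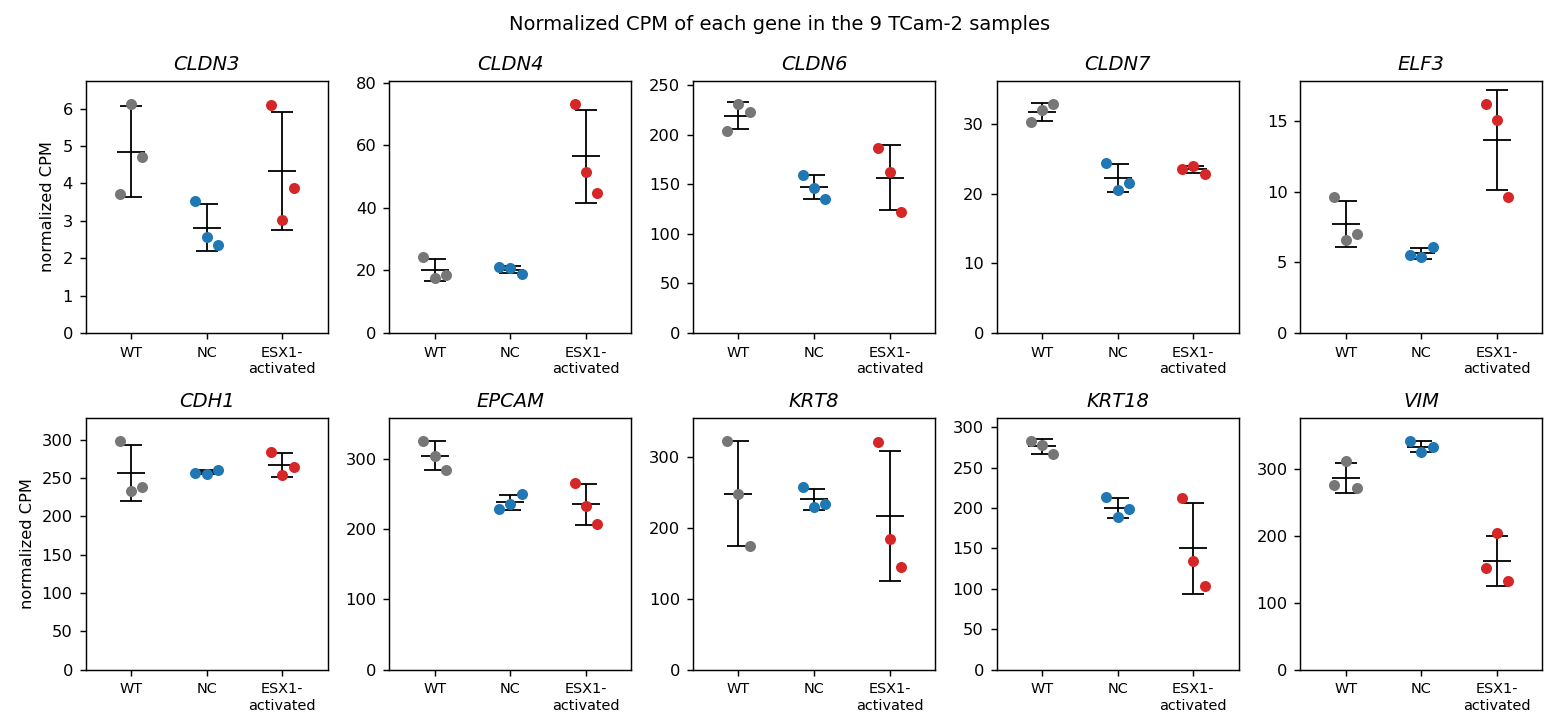
Normalized CPM (TMM, linear axis from 0) of the 10 genes in each of the 9 TCam-2 samples, with points for samples in the order of replicates, a bar for the mean and whiskers for the SD (n = 3 per group). For CLDN4 the activated samples lie above every control and for VIM below every control, whereas for KRT8 the 3 groups overlap.

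None of CLDN3, CLDN6 and CLDN7 passed the threshold. CLDN6, a claudin of embryonic epithelia that is also present in germ cell tumours, had 204, 231 and 223 CPM in WT, 159.7, 147 and 136 in NC and 186, 162 and 122 in the activated samples. The WT samples were the highest, and NC and activated samples overlapped. CLDN6 differed by 0.09 between activated and NC cells (95% interval -0.20 to 0.38, adjusted p = 0.817 by edgeR).

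CLDN7, which pairs with EPCAM at the membrane, had 30.4, 32.1 and 32.9 CPM in WT, 24.5, 20.6 and 21.6 in NC and 23.6, 23.9 and 22.9 in the activated samples. WT was again above both other groups. The difference of activated from NC cells was 0.08 (95% interval -0.22 to 0.39). CLDN3, a close relative of CLDN4, had few counts, 21 to 60 per sample. Its CPM were 3.71, 6.12 and 4.70 in WT, 3.52, 2.57 and 2.34 in NC and 6.08, 3.02 and 3.88 in activated samples, and activated and NC samples overlapped. Its difference of 0.63 between them had a wide interval (-0.09 to 1.35, adjusted p = 0.398 by edgeR).

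CDH1 differed little between group means. It had 299, 233 and 238 CPM in WT, 257, 256 and 260.3 in NC and 284, 254 and 264 in the activated samples, and the groups overlapped. Its difference was 0.05 against NC (95% interval -0.19 to 0.29) and 0.06 against WT (-0.18 to 0.30), so that changes of 2-fold lay outside both intervals. EPCAM had 326, 304 and 285 CPM in WT, 228, 236 and 250.1 in NC and 265, 232 and 208 in the activated samples, and differed by -0.02 between activated and NC cells (-0.25 to 0.22).

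The keratin pair varied widely among the activated samples. KRT8 had 323, 247 and 175 CPM in WT, 257, 229 and 234 in NC and 320.3, 185 and 145 in the activated samples, a spread of 29.8% of the mean in WT and 42.3% in the activated group against 6.29% in NC. With that spread its difference of -0.14 from NC had an interval of -0.63 to 0.34. KRT18 had 283, 279 and 267 CPM in WT, 214, 189 and 199 in NC, and 213, 135 and 103 in the activated samples. WT samples were above all others, and activated and NC samples overlapped through activated replicate 1. KRT18 differed by -0.41 from NC (SE 0.18, edgeR adjusted p = 0.259), and without activated replicate 1 by -0.75 (adjusted p = 0.0031). Against WT it differed by -0.87 (SE 0.18, edgeR adjusted p = 0.0015), under the 2-fold limit, and by -1.21 without activated replicate 1, past it.

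Per kilobase of exon, KRT8 stood at 0.42 ± 0.11 of KRT18 in WT, 0.56 ± 0.01 in NC and 0.67 ± 0.03 in the activated samples (SD, n = 3). The ratio was 0.31 to 0.53 in WT samples, 0.55 to 0.57 in NC and 0.64 to 0.70 in the activated samples, so the groups did not overlap. The exon length joins all annotated exons of a gene, and reads over exons shared by both genes were not assigned. The size of the ratio therefore depends on the annotation, while all groups share the same lengths. No test of 3 samples against 3 can go below an exact two-sided permutation p of 0.1. Both keratins have many processed pseudogenes. In the table, 50 KRT8 pseudogenes had together 21.96% as many counts as KRT8, and 68 KRT18 pseudogenes had 5.18% to 7.01% as many as KRT18 in WT, 10.7% to 13.4% in NC and 10.7% to 21.6% in activated samples. With pseudogene counts added to each parent gene, KRT18 differed by -0.37 from NC and by -0.76 from WT, and KRT8 by -0.17 and -0.19.

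**Figure D2:**
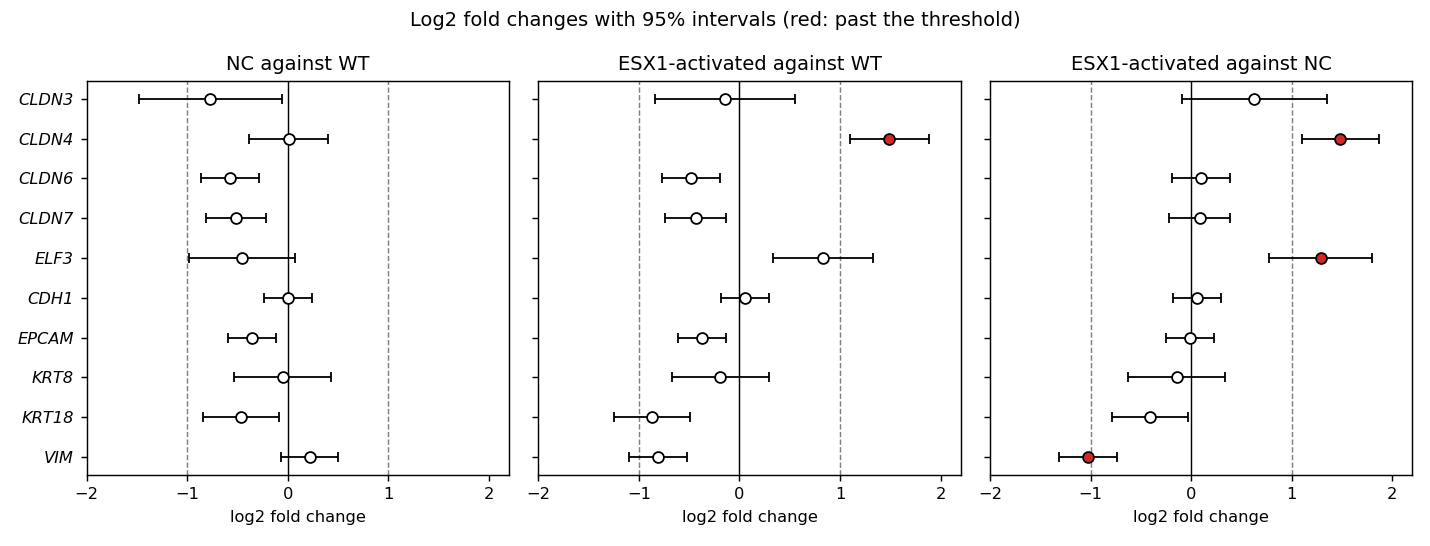
Log2 fold changes of the 10 genes in the 3 comparisons with 95% intervals (edgeR quasi-likelihood fit over 9 samples), dashed lines at a 2-fold change and red points for genes past the threshold. CLDN4 (1.48) and ELF3 (1.29) lie to the right and VIM (-1.03) to the left in the comparison with NC, and CLDN4 alone is red in the comparison with WT.

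Against WT, ESX1-activated cells differed more widely, and so did the rest of the transcriptome. CLDN4 was the 1 gene of 10 past the threshold, where 11.5% of all tested genes passed. At an adjusted p below 0.05 without a fold limit, 7 of the 10 genes passed, CLDN4 and ELF3 higher and CLDN6, CLDN7, EPCAM, KRT18 and VIM lower, and 28.8% of all genes did. CLDN6 differed by -0.48 (edgeR adjusted p = 0.0141), CLDN7 by -0.43 (0.0305) and EPCAM by -0.37 (0.0197). These were small differences, and the adjusted p reached 0.0904 for CLDN6, 0.097 for CLDN7 and 0.109 for EPCAM without activated replicate 3.

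NC cells against WT cells give the change that came with a gRNA vector, selection and doxycycline without a guide to ESX1. None of the 10 genes passed the threshold in this comparison with edgeR or with DESeq2 (0 genes each), and 5.27% of all tested genes did with edgeR. At an unadjusted p below 0.05 there were 5, CLDN3, CLDN6, CLDN7, EPCAM and KRT18, all lower in NC, where 31.1% of all tested genes stood below that value. CLDN6 (-0.57, edgeR adjusted p = 0.00825), CLDN7 (-0.52, adjusted p = 0.0186) and EPCAM (-0.36, adjusted p = 0.038) passed on the adjusted p alone, as 17.1% of genes did. Without NC replicate 3 the adjusted p were 0.0621, 0.0914 and 0.096. For CLDN7 the edgeR adjusted p was also above 0.05 without NC replicate 2 (0.104), WT replicate 2 or WT replicate 3, and in thinned libraries. For EPCAM it was so without NC replicate 1 (0.159), NC replicate 2 (0.139), WT replicate 1 or WT replicate 2. The same held for EPCAM with upper-quartile factors, with the looser count filter and in thinned libraries.

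Every NC and every activated sample of CLDN6, CLDN7 and EPCAM lay below every WT sample. The comparisons of activated and of NC cells with WT share the WT samples, and the values above are each comparison's own. In NC against WT, 7 of the 10 genes had groups that did not overlap, 6 with NC below and VIM with NC above, where 37.6% of all genes had such groups. Activated and NC samples did not overlap for 3 of 10 genes, against 22.6% of all genes, and activated and WT samples for 6 of 10, against 40.3%. The median log2 fold change of the 10 genes was 0.07 against NC, -0.28 against WT and -0.41 for NC against WT, and that of all tested genes was 0.00044, 0.0066 and 0.0085.

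Ranked by level per kilobase of exon, CLDN6 (126 CPM per kb) and EPCAM (121) led in WT and overlapped, followed by KRT18 (85.8), VIM (55.5), CDH1 (41.5) and KRT8 (36.1), and CDH1 overlapped with KRT8. CLDN7 (12.8), CLDN4 (4.28), CLDN3 (3.80) and ELF3 (1.07) stood lower, with CLDN4 and CLDN3 overlapping. This order depends on the annotated exon lengths, which were 4702 bases for CLDN4, 1274 for CLDN3 and 7191 for ELF3. In the activated samples CLDN4 reached 12.02 ± 3.15 CPM per kb and overlapped with CLDN7 at 9.43 ± 0.21. CLDN4 moved from percentile 56.5 among all tested genes in WT and in NC to 82.7. VIM, at 64.6 CPM per kb in NC, stood at 31.5 in the activated samples and overlapped there with KRT8.

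CDH1 stood per kilobase at 0.75 ± 0.14 of VIM in WT, 0.65 ± 0.02 in NC and 1.42 ± 0.34 in activated samples (SD, n = 3). The lowest activated sample had 1.04 and the highest control sample 0.90. The keratins did not separate from WT in this way. KRT8 stood at 0.48 to 0.88 of VIM in WT, 0.53 to 0.56 in NC and 0.68 to 1.58 in activated samples. KRT8 and KRT18 together stood at 2.02 to 2.52 times VIM in WT, 1.46 to 1.57 in NC and 1.74 to 3.82 in activated samples. CLDN6 was 30.3 ± 6.72 times CLDN4 in WT, 19.6 ± 0.71 times in NC and 7.58 ± 0.85 times in activated samples, and the 3 groups did not overlap. These ratios carry the differences of their genes given above and are no separate result. How often ratios of other gene pairs separate the groups was not tested.

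**Figure D3:**
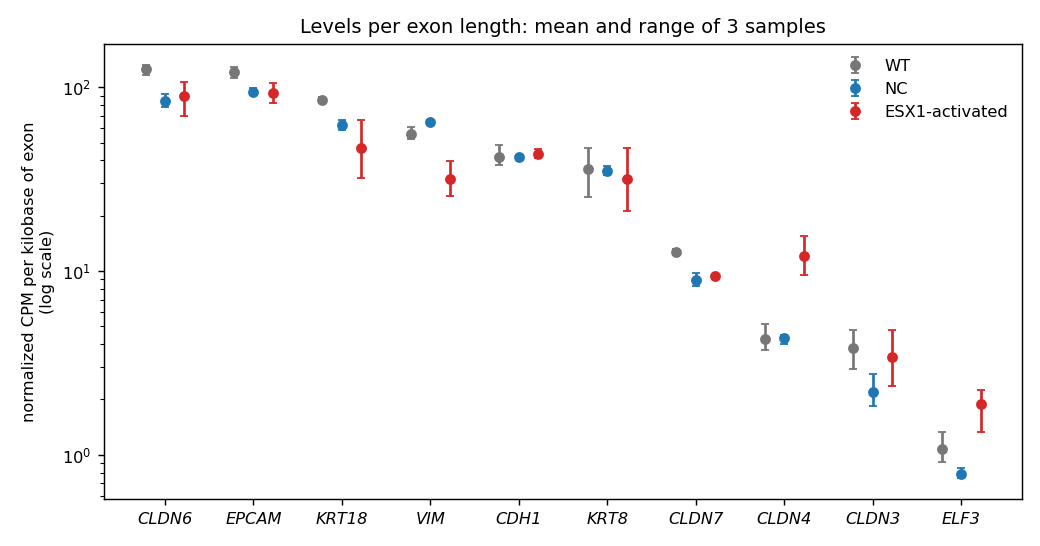
Normalized CPM per kilobase of exon (log axis) of the 10 genes in WT, NC and ESX1-activated samples, with points for means and whiskers for the lowest and highest of 3 samples, ordered by the WT mean. CLDN4 moves from 4.28 in WT to 12.02 in activated samples, to the level of CLDN7, and VIM from 55.5 to 31.5.

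Deviations of samples from their group means were compared between genes as a description over 9 samples, which share depth and scaling. KRT8 went with EPCAM (r = 0.896), CLDN4 (0.888) and KRT18 (0.844), being high in activated replicate 1 and low in activated replicate 3. VIM did not go with CLDN4 in this way (r = -0.036), although over the 9 samples with the groups left in their r was -0.884.

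Of 11616 other tested genes with a mean of at least 5 CPM, those most like CLDN4 over the 9 samples in log2 CPM were GSR (r = 0.982), ADAM19 (0.981), MTO1 (0.977), NOCT (0.974) and STEAP3 (0.974). Those most like ELF3 were TTC21B (0.991), FERMT1 (0.972), BTG3 (0.963), PRSS23 (0.956) and SERGEF (0.952). Those most like VIM were MMP2 (0.977), ADD2 (0.97), METTL7A (0.969), STX2 (0.968) and C14orf159 (0.965). These correlations carry the differences between groups and describe the pattern alone.

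Among the other genes of cell junctions and filaments, 0 of 7 claudins, 18 tight junction partners, 18 adherens junction and desmosome genes, 4 keratins and 8 other filament genes passed between activated and NC cells with edgeR, and 0 with DESeq2. The share of all tested genes that passed with edgeR was 1.78%. Of 20 further claudins, 7 had enough counts, and 0 passed edgeR's threshold in any comparison, with 1 at an unadjusted p below 0.05 in each. Of all tested genes, 16% stood below that value against NC, 39.7% against WT and 31.1% for NC against WT. Without activated replicate 2, 1 passed against WT. CLDN12 had 14.4 to 16.4 CPM in WT and 12.8 to 17.9 in activated samples. CLDN8, CLDN17 and CLDN22 had no counts.

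Of 18 tested tight junction partners, the occludin family, ZO scaffolds, JAMs and polarity genes, 0 passed against NC. In edgeR 4 of them had an unadjusted p below 0.05, as did 16% of all tested genes. Occludin, OCLN, differed by 0.31 (edgeR adjusted p = 0.252) and the ZO-1 gene TJP1 by -0.25 (0.282). The ZO-3 gene TJP3 was lower in both transfected groups, with 42.4, 53.3 and 89.1 CPM in WT, 22.9, 16.8 and 21.1 in NC and 19.7, 20.0 and 16.6 in activated samples. No NC or activated sample of TJP3 reached a WT sample. It fell by 1.61 on the log2 scale in NC against WT (edgeR adjusted p = 0.000136), and CGNL1, a scaffold gene of these junctions, fell by 1.09 (adjusted p = 0.00699), a call lost without WT replicate 3 (-0.74) or NC replicate 3 (-0.99), with upper-quartile factors (-0.99) and with limma on the deposited log2 values (-0.83). JAM2, a junctional adhesion gene, was the 1 gene of this list that rose against WT. It had 0, 4 and 5 counts in WT, 13, 12 and 5 in NC and 15, 32 and 13 in activated samples, all above WT. Its log2 rise over WT was 2.69 (edgeR adjusted p = 0.00867), and limma gave 0.99, under the limit. Of 18 tested adherens junction and desmosome genes, 0 passed in any comparison, with 7 at an unadjusted p below 0.05 against NC, 7 against WT and 4 for NC against WT, beside 16%, 39.7% and 31.1% of all genes.

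Of 15 other keratins only KRT7, KRT10, KRT19 and KRT80 were tested, and 0 passed against NC, with 0 also at an unadjusted p below 0.05. The shares of all tested genes were 1.78% and 16%. KRT19, a type I keratin of simple epithelia, had 49.1, 68.5 and 86.4 CPM in WT, 48.1, 43.7 and 40.3 in NC and 75.7, 59.1 and 29.6 in activated samples, which overlapped with both control groups. KRT7 differed by 0.22 from NC (edgeR adjusted p = 0.634). Of 8 other intermediate filament genes tested, 0 passed against NC and 4 had an unadjusted p below 0.05 in edgeR, beside 16% of all tested genes. Their median log2 fold change against NC was -0.29, beside 0.00044 over all tested genes. At an adjusted p below 0.05 without a fold limit 2 were lower, where 784 of 18452 genes passed. The gene of nestin, NES, a filament protein that assembles with vimentin, had 203, 154 and 129 CPM in WT, 294, 274 and 273 in NC and 556, 269 and 389 in activated samples. Activated samples overlapped with NC and lay above WT, against which NES rose by 1.32 on the log2 scale (edgeR adjusted p = 0.000111). VIM had differed by -0.81 from WT.

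Of 13 tested surface and trafficking genes of epithelia, 1 passed against NC, beside 1.78% of all tested genes. The gene that passed was CD24, a small glycosylated surface protein, with 25.1, 18.8 and 14.0 CPM in WT, 13.2, 14.4 and 13.5 in NC and 27.0, 35.0 and 25.3 in the activated samples. It rose by 1.09 against NC (edgeR adjusted p = 0.00409), was 0.93 without activated replicate 2 and 0.91 with limma, both under the limit, and differed by 0.60 from WT. The tetraspanin gene CD9 differed by 0.62 from NC (edgeR adjusted p = 0.0045) and by -0.70 in NC against WT (adjusted p = 0.00063), and activated and WT samples overlapped.

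Among 12 tested regulators of epithelial genes, OVOL1, a zinc finger repressor, was the 1 gene past the threshold against NC, beside 1.78% of all tested genes. It had 11.1, 6.56 and 5.12 CPM in WT, 7.77, 8.15 and 7.84 in NC and 16.2, 14.9 and 17.0 in activated samples, which lay above every control. OVOL1 rose by 1.01 against NC (edgeR adjusted p = 0.0225) and by 1.07 against WT (0.00349). The call against NC was lost without any single one of the NC samples (adjusted p = 0.0887, 0.0892 and 0.100) and without activated replicate 3 (0.0806), and that against WT without WT replicate 2 (0.97) or 3 (0.83), under the limit. With limma both were under the limit (0.78 and 0.87).

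GRHL2, the Grainyhead-like activator of claudin-4 and E-cadherin genes, differed by -0.01 from NC (edgeR adjusted p = 0.987). Its relative GRHL3 had 8.63, 5.83 and 2.51 CPM in WT, 10.7, 12.5 and 17.1 in NC and 25.04, 20.3 and 19.8 in activated samples. The 3 groups did not overlap, and GRHL3 rose by 1.95 in activated and by 1.25 in NC cells against WT (edgeR adjusted p = 0.000158 and 0.00995), whereas activated against NC gave 0.70 (0.216). The call for NC against WT was lost without WT replicate 3 (0.88) or NC replicate 3 (adjusted p = 0.0605 by edgeR) and with limma (0.96). TFAP2C, which is both an epithelial regulator and a seminoma marker, fell by 1.18 against WT and was -0.71 against NC (edgeR adjusted p = 0.000315), under the limit. Against NC, 6 of the 12 tested regulators had a positive log2 fold change, and their median was -0.0024, beside 0.00044 over all tested genes. Against WT, 3 of the 12 rose and 1 fell, where 11.5% of all tested genes passed. TP63 was among those that rose, by 1.37 to 2.52 with 1 sample left out (edgeR adjusted p at most 0.00947).

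Of 9 regulators of the mesenchymal transition, SNAI1, SNAI2, TWIST1 and TCF4 had enough counts and ZEB1, ZEB2, TWIST2, PRRX1 and FOXC2 did not. None of the 4 passed against NC (0 genes, 1 at an unadjusted p below 0.05 in edgeR, beside 16% of all tested genes). SNAI2, the gene of the repressor Slug, had 3.60, 1.89 and 1.57 CPM in WT, 7.77, 11.5 and 10.3 in NC and 4.66, 5.73 and 2.03 in activated samples. NC samples were above all others, and SNAI2 rose by 2.05 in NC against WT (edgeR adjusted p = 0.000985), while activated against NC gave -1.19 (0.0565). DESeq2 called it lower in activated than in NC cells, and so did edgeR without WT replicate 1, WT replicate 3 or activated replicate 2, with the replicate block and in the fit of the 6 samples compared. SNAI1 differed by 0.42 from NC (0.637) and rose by 1.23 against WT (0.0227), a call lost without WT replicate 2 (0.0733), WT replicate 3 (0.0693), activated replicate 1 (0.108) or activated replicate 3 (0.055), in thinned libraries (0.117) and with limma (0.64, under the limit).

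Of 17 tested cytoskeleton, adhesion and matrix genes of mesenchymal cells, 0 fell past the threshold against NC and 1 rose, beside 1.78% of all tested genes. The gene that rose was THBS1, which encodes the matrix protein thrombospondin-1. THBS1 had 22.7, 18.5 and 10.03 CPM in WT, 48.0, 37.0 and 50.9 in NC and 115, 79.4 and 209 in activated samples. The 3 groups did not overlap, with differences of 1.56 from NC (edgeR adjusted p = 0.00329), 2.97 from WT and 1.41 between NC and WT. The N-cadherin gene CDH2 had 582, 562 and 457 CPM in WT, 503, 548 and 538 in NC and 381, 388 and 344 in activated samples, below every control, and differed by -0.51 from NC (edgeR adjusted p = 0.0106), under the limit. The median of the 17 genes was 0.28 against NC, beside 0.00044 over all tested genes. Against WT 7 rose and 1 fell, where 11.5% of all tested genes passed. In NC against WT 4 rose and 2 fell, where 5.27% of all tested genes passed, and these became 2 and 1 without any one of the NC samples. The medians of the 17 genes were 0.86 against WT and 0.52 for NC against WT, beside 0.0066 and 0.0085 over all tested genes. DESeq2 called 2 higher against NC.

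**Figure D4:**
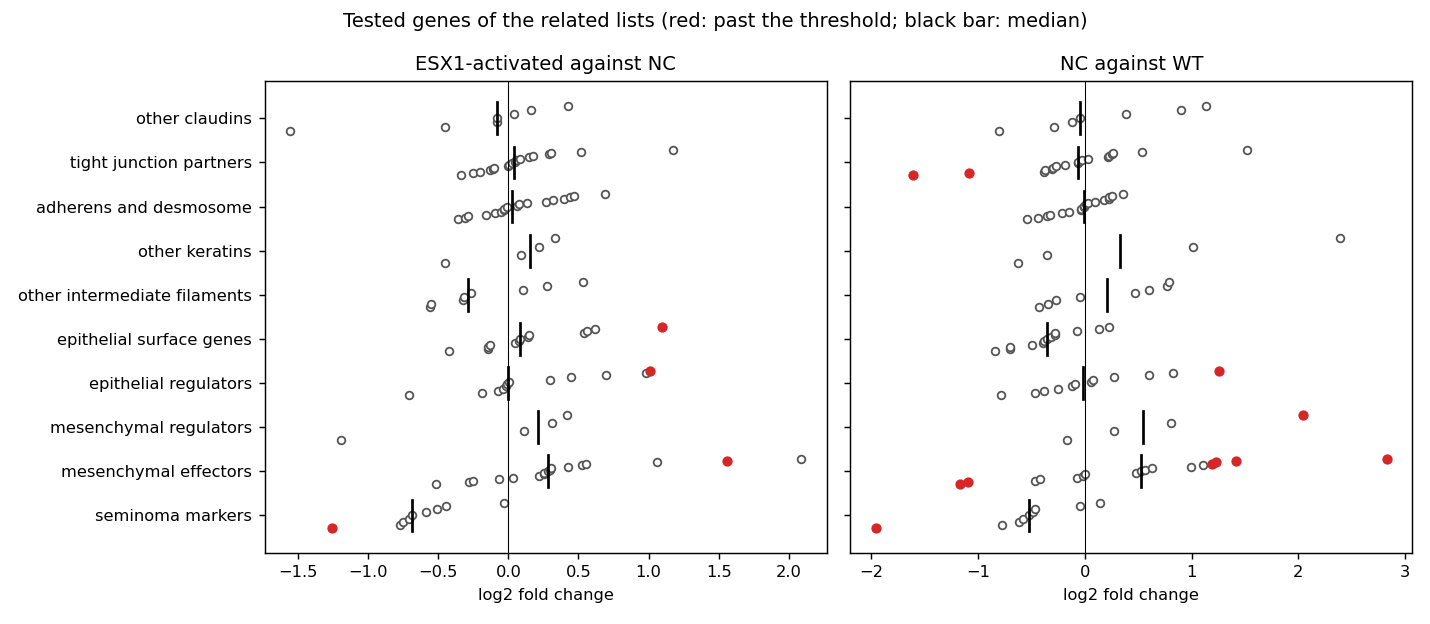
Log2 fold changes of the tested genes of 10 related lists for ESX1-activated against NC (left) and NC against WT (right), each point 1 gene, red past the threshold, with a black bar at the list's median. Against NC the red points are CD24, OVOL1, THBS1 and, among seminoma markers, NANOG at -1.26.

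Markers of other cell types were read from the same samples. Fibroblast markers summed to 205 to 357 CPM in WT, 139 to 175 in NC and 112 to 231 in activated samples, and 4 of 8 were tested. THY1, one of them, had 13.2, 15.01 and 19.2 CPM in WT, 4.35, 5.36 and 3.36 in NC and 1.22, 1.71 and 1.85 in activated samples, and fell by 1.47 against NC (edgeR adjusted p = 0.00981), a call lost without NC replicate 2 (0.0602) and with limma (-0.71, under the limit). COL1A1, another of the 4 tested, rose by 2.19 in NC against WT (edgeR adjusted p = 0.000708), where THY1 fell by 1.86. In activated cells against WT, COL1A1 rose by 1.64 to 2.74 in the fits with 1 sample left out. Of the 4 genes, 1 rose and 1 fell in both comparisons with WT. Of all tested genes, 5.27% passed for NC and 11.5% for activated cells. Endothelial markers summed to 38.0 to 43.9 CPM in WT, 41.6 to 52.4 in NC and 45.8 to 55.3 in activated samples. Embryonal carcinoma markers summed to 78.4 to 88.2, 64.6 to 75.1 and 56.9 to 67.7 in the same order. Trophoblast markers summed to 25.8 to 31.7, 34.5 to 40.6 and 31.2 to 49.3. Of 5 tested trophoblast markers 3 rose and 1 fell in activated cells against WT, where 11.5% of all tested genes passed. In NC against WT 2 rose and 1 fell, where 5.27% passed. Between activated and NC cells 0 passed, where 1.78% did. Testis somatic markers summed to 10.2 to 16.8 CPM in WT, 13.7 to 19.5 in NC and 12.1 to 29.0 in activated samples, and INSL3 of this list had no counts. SOX9, on the somatic list, had 2.18 to 2.82 CPM in WT, 0.64 to 1.63 in NC and 3.32 to 5.78 in activated samples and rose by 1.83 against NC (edgeR adjusted p = 0.012), a call lost without NC replicate 2 (0.0736) or activated replicate 1 (0.0671) and with limma (0.89, under the limit). The part of these markers in the differences of the claudin, keratin and vimentin genes was not tested.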

How the data were processed

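RNA-seq counts of 9 TCam-2 samples, 3 each of WT, NC and ESX1-activated cells, were analysed, with groups and replicate numbers taken from the labels. Libraries were stranded total RNA after rRNA removal, read as pairs. The authors aligned reads to GRCh38.p7 with HISAT2 2.0.5 and deposited counts per gene from featureCounts, whose version is 1.5.2 in the file header and 1.6.5 in the submitters' processing notes. The header names GENCODE 26 and no strand option, so reads over overlapping genes were not assigned. A table of log2 values, normalized with DESeq2, was deposited as well. Its transformation is not given in the sources used here, and it served only as an alternative.

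Counts were fitted in R 4.3.3 with edgeR 4.0.16 (filterByExpr, TMM, glmQLFit over all 9 samples, glmQLFTest), with Benjamini-Hochberg adjustment across 18452 genes in each of 3 comparisons. The threshold was an adjusted p below 0.05 with a fold of at least 2. The SE is the log2 fold change divided by the square root of F. Replicates are called biological in the methods of the study, and no pair of libraries agreed within sampling noise. The procedure was tested on simulated data. Alternatives used DESeq2 1.42.0, limma 3.58.1, other scaling factors, count filters, thinned libraries and each sample left out.

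Named genes were the 10 members, up to 4 genes of a list that passed one way against both NC and WT, up to 3 that passed for NC against WT only, the tested mesenchymal regulators, and the 5 genes most like CLDN4, ELF3 and VIM. Every tested epithelial regulator was to be named as well, but only OVOL1, GRHL2, GRHL3, TFAP2C and TP63 were, which departs from the plan. CD24, CD9, TJP3, JAM2, NES, CDH2, COL1A1, SOX9, OCLN, TJP1, CLDN12, KRT7 and KRT19 fall outside that rule and were chosen after their values were seen. The members and lists were chosen with earlier results of these data known. Levels per kilobase use the exon length of the count table, which joins all annotated exons of a gene. Comparisons of different genes per kilobase depend on that annotation. Upstream sequences are from RefSeq on GRCh38.p14, which held 7 of the 10 members.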

Additional observations from a re-analysis of the deposited data

How the results depend on the processing

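Over all settings the 3 calls against NC kept their direction. CLDN4 was called in each fit with 1 sample left out (1.25 to 1.63 against NC, 1.26 to 1.65 against WT). With limma on the deposited log2 values ELF3 was 0.90 against NC (adjusted p = 0.00608), which ended its call, and it ended further calls of list genes named above. The members called against NC numbered 2 to 3 with 1 sample left out, and 1 to 2 against WT (2 without WT replicate 1 or any one of the activated replicates); without a minimum fold they numbered 7 against WT and 3 for NC against WT. All genes called against NC, 328, became 200 with at least 10 counts in every sample, 177 with limma and 784 without a minimum fold, and 209 to 434 with 1 sample left out (209 without NC replicate 3). Against WT 2131 became 1192, 937 and 5306, and 1772 to 2529. For NC against WT 973 became 563, 338 and 3158, and 686 to 1338. Upper-quartile factors moved the median of all genes to 0.11 (activated against WT) and 0.096 (NC against WT), and the split of higher and lower calls from 1251 and 880 to 1476 and 697, and from 576 and 397 to 710 and 311.

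Signs reversed only for differences near 0. For NC against WT, CLDN4 was -0.078 in thinned libraries, and KRT8 was 0.034 with upper-quartile factors, 0.0022 with limma and 0.014 in thinned libraries. With 1 sample left out, CDH1 ran from -0.014 to 0.17 against WT and from -0.064 to 0.12 for NC against WT, CLDN3 from -0.50 to 0.076 against WT, CLDN4 from -0.082 to 0.16 for NC against WT, CLDN6 from -0.051 to 0.26 and EPCAM from -0.11 to 0.077 against NC, and KRT8 from -0.54 to 0.087 against NC, -0.59 to 0.052 against WT and -0.25 to 0.18 for NC against WT. The cause was not tested. Of 306 member values under other settings 300 kept direction and side of the threshold, and of 270 with 1 sample left out 247 did.

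Same-numbered samples of 2 groups deviated together with r of 0.193, 0.0912 and 0.0157 (activated and NC), 0.0571, 0.0486 and -0.0058 (activated and WT) and -0.00092, 0.022 and -0.03 (NC and WT), so the numbers were not taken to pair the samples. With the replicate block 3, 1 and 0 members and 358, 2109 and 1003 genes were called, and KRT8 for NC against WT was 0.0089 and reversed. The block changed no member's call. No symbol made of VIM followed by P and digits was found in the count table, so summing pseudogenes was not run for VIM. Pseudogenes of VIM under other names were not searched for. ELF3, with 45 to 160 counts, and CLDN3, with 21 to 60, are limited most by depth.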
